A study of Mus musculus with 4 samples.

Results

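Cycling keratinocytes were the mouse back skin epidermal cells that held transcripts of a set of G2 and mitosis genes 1 week after deletion of DNp63, and they were chosen from the counts. Genes of DNA replication were high in them too, and no cell was assigned to a phase. A barcode of a 1-week library was a member when it held 3000 or more gene UMIs (unique molecular identifiers, each standing for 1 captured transcript), 15% or fewer mitochondrial UMIs, 5 or more UMIs of the basal keratins Krt5 and Krt14, and no UMI of the leukocyte gene Ptprc. It also had to hold 6 or more UMIs over the 8 genes Mki67, Top2a, Cenpf, Ube2c, Ccnb1, Cdk1, Birc5 and Hmmr, with at least 4 of these genes detected. The rule found 744 members, 369 of them control and 375 ablated, among 43452 barcodes of the 1-week libraries and 109216 of the whole series. Non-cycling keratinocytes, the comparison cells of each library, met the same conditions on depth, keratins and Ptprc but held 0 UMIs of the 8 genes, and there were 4973 in control and 1942 in ablated skin.

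The series holds 4 single-cell RNA libraries, 1 for each combination of genotype and time. Control mice carried floxed DNp63 alleles alone (DNp63fl/fl), and ablated mice, labelled experimental, carried the same alleles with a tamoxifen-activated Cre driven by the keratin 14 promoter (DNp63fl/fl;K14-CreT2). Mice of both genotypes, aged 2 to 17 months and in equal numbers of each sex, received tamoxifen at 200 mg/kg by oral gavage daily for 5 days. Keratinocytes were isolated from trypsin-floated back skin 1 day or 1 week after ablation. Trypsin was used under either of a pair of conditions, and which one each library had is not stated. The K14 promoter is active in basal keratinocytes, including those of hair follicles, so deletion was directed to the cells that divide. The 1-day libraries were made with a 10x kit that reads transcript 3′ ends and the 1-week libraries with one that reads 5′ ends, so the times were never pooled. How many animals, and how many of each sex, went into a library is not given in the sources used here.

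Epidermis is renewed by division of basal keratinocytes, which sit on the basement membrane, express Krt5 and Krt14, and are held there by hemidesmosomes. Daughter cells that leave this layer normally stop dividing, switch to Krt1 and Krt10, and later make the cornified envelope. DNp63, the form of the p53 relative Trp63 that lacks the full activation domain, is the main transcription factor of the basal layer. A dividing cell first makes the enzymes of DNA replication, driven by E2F factors, and then the kinases, kinesins and spindle proteins of mitosis, whose genes share promoter elements bound by NF-Y (the CCAAT box) and by the DREAM and MuvB complexes (the cell cycle homology region).

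Promoters of the cell cycle genes are shown because the cell cycle lists described later carry these elements to different extents. Of 38 mitotic genes outside the rule, 31 matched a promoter of the RefSeq table (build GRCm38.p6), as did 28 of 32 replication genes, all 8 rule genes and 10 of 15 basal adhesion genes. The 150 bases before each start were searched on both strands for CCAAT, for TTTGAA or TTTAAA (letters of the cell cycle homology region), and for TTTGGCGC or TTTCCCGC (letters of an E2F site), and none of these letter strings contains another. CCAAT stood in 7 of 8 rule gene promoters (87.5%), 26 of 34 mitotic promoters (76.5%), 19 of 33 replication promoters (57.6%), 2 of 14 adhesion promoters (14.3%) and 24.5% of all 32851 promoters. TTTGAA or TTTAAA stood in 62.5%, 38.2%, 9.09%, 14.3% and 14.7% of these sets in the same order. The E2F letters were in 0 of 8 rule promoters, 1 of 34 mitotic promoters, 6 of 33 replication promoters (18.2%), 0 of 14 adhesion promoters and 0.868% of all promoters. Members of a list are given below with the motif letters in capitals, 5′ to 3′ on the gene's own strand.
Cdk1, the mitotic kinase and a rule gene, chr10:69352913-69353062, minus strand: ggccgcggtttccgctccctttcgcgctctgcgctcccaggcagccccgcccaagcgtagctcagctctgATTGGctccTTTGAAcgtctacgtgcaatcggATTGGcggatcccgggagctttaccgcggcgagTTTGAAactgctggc
Ccnb2, a mitotic cyclin, chr9:70421555-70421704, minus strand: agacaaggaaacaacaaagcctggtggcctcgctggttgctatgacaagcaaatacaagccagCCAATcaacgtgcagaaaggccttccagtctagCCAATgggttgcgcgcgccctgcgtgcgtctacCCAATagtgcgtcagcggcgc
Plk1, a mitotic kinase, chr7:122159285-122159434, plus strand: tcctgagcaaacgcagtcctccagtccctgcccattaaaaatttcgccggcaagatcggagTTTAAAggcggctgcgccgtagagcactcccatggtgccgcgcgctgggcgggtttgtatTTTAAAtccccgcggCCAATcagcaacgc
Mcm6, a subunit of the replicative helicase, chr1:128359706-128359855, minus strand: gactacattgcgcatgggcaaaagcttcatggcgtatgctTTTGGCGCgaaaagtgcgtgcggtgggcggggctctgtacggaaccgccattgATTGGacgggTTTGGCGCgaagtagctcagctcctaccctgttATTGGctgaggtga
Mcm6 holds 2 copies of TTTGGCGC, whereas Ccnb2 and Plk1 hold none, and Ccnb2 holds 3 CCAAT boxes. A match is a description of these letters and not a measured binding site.

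With 1 library per group nothing could be tested across animals, and every interval covers counting error only. Counts were summed over the cells of a class and given relative to the UMI total of the class, as CPM, and ratios are log2 of ablated over control unless another order is named. Genes with 50 or more UMIs over both sums were counted, and a 2-fold difference in CPM was the size called. Ablated members were deeper, with a median of 18701 UMIs (range 3001 to 70735) against 11588 (3135 to 67501) in control, while the non-cycling medians were 6690.5 and 6355. Shares of cells with a gene were therefore taken after thinning each cell to 3000 UMIs. Levels in 76 control and 52 ablated immune barcodes, which should lack keratinocyte genes, are given as a background. In the ablated library 10 of the 52 held 97.9% of the Krt5 and 97.8% of the Krt14 UMIs found there, and the median barcode held 0, so this background was not spread evenly and is not a measure of free RNA alone. Summed levels of other lineages were low: 10 fibroblast markers took 61.5 CPM in control and 63.9 CPM in ablated members, 11 melanocyte markers 30.5 and 29.5 CPM, 10 endothelial markers 21.9 and 14.5 CPM, and 10 muscle and pericyte markers 65.0 and 45.0 CPM, with 7 of these 41 markers at 0 UMIs in control and 3 in ablated members. UMIs of fibroblast, melanocyte, endothelial, muscle or immune markers numbered 3 or more in 42.8% of control and 57.6% of ablated members, against 31.3% and 42.3% of non-cycling cells. The immune markers include S100a9, which stood higher in ablated members, and the cut is a raw count that grows with depth. Leaving these barcodes out can thus also remove deep or S100a9-bearing keratinocytes, not doublets alone. Values without them are given beside the results they move most. The 1-week lists shared 661 barcode sequences, of which 1 belonged to members of both libraries.

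The markers that chose the cells were present at different strengths in the 2 libraries, which is a description and not a finding. Mki67, the proliferation antigen, stood at 1025 CPM in control and 635 CPM in ablated members. Top2a, the topoisomerase that untangles chromosomes, stood at 843 and 457 CPM, and Cenpf, a kinetochore protein, at 499 and 235 CPM. Ube2c, which feeds mitotic cyclins to the proteasome, was nearly level at 693 and 633 CPM. The median member held 46 UMIs of the 8 genes in control and 38 in ablated skin, and all 8 were detected in 154 and 161 members. Close to the threshold, 25 control and 33 ablated members held 6 or 7 of these UMIs, and 147 and 144 barcodes just outside held 4 or 5. A further 49 and 41 barcodes had enough UMIs but fewer than 4 of the genes. Of keratinocyte genes the rule did not use, Perp, a desmosome protein, stood at 2247 CPM in control and 1906 CPM in ablated members, against 1205 and 640.0 CPM in immune barcodes. Col17a1 stood at 849 and 232 CPM against 522 and 105 CPM, and Dst at 778 and 243 CPM against 620.1 and 200.1 CPM, so Dst was near the immune level in both libraries. In turn 19 immune markers together stood at 196 CPM in control and 343 CPM in ablated members against 69274 and 74121 CPM in immune barcodes.

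Cycling cells made up a larger share of keratinocytes in the ablated library. Members were 369 of 6947 keratinocyte barcodes in control, 5.31% (95% exact Clopper-Pearson interval 4.8 to 5.87), and 375 of 3315 in ablated skin, 11.3% (10.3 to 12.4), a difference of 6.0 percentage points (4.81 to 7.24). Because the rule counts UMIs and ablated cells were deeper, it was also applied after thinning every barcode to 3000 UMIs. The shares were then 3.60% (250 cells) and 5.82% (193 cells), and the difference shrank to 2.22 points (1.32 to 3.18). It was 4.48 points without barcodes that carried markers of other lineages and 8.39 points among barcodes of 5000 or more UMIs. The ablated share was higher under each of the 7 alternatives run.

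**Figure D1:**
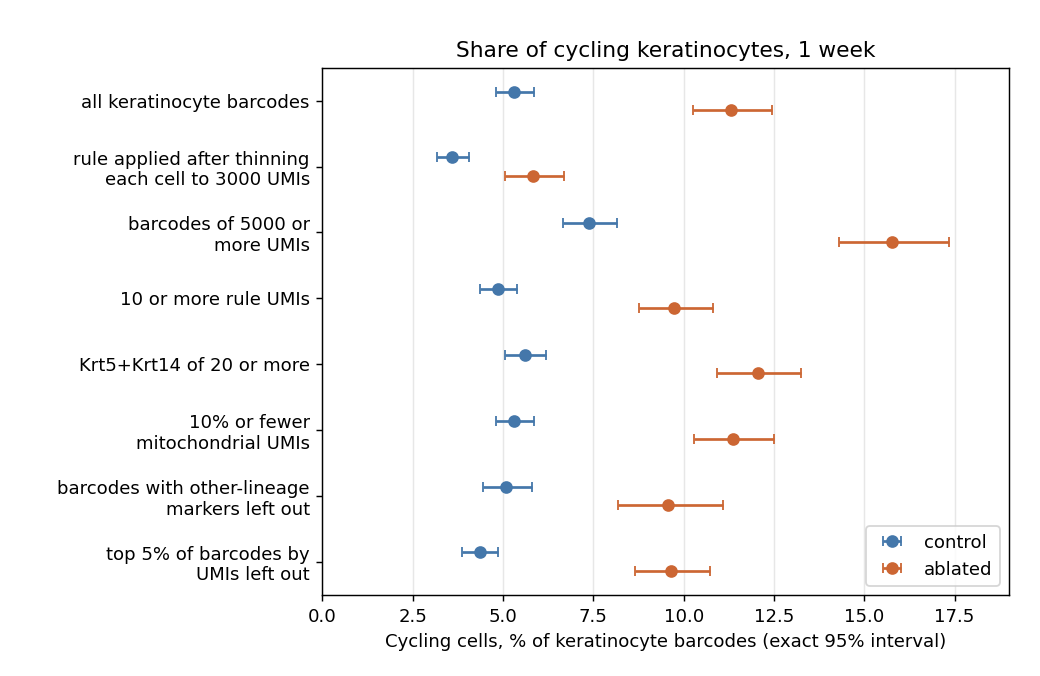
Share of keratinocyte barcodes that were cycling (percent, horizontal axis) in the control and ablated 1-week libraries under the rule and each alternative; points are shares and bars exact 95% Clopper-Pearson intervals, which cover counting error only. The ablated share lies above the control share in each setting, by 6.0 points under the rule and by 2.22 points after thinning to 3000 UMIs.

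The members of the 2 libraries, as chosen by the rule, were weighted differently between replication and mitosis. The rule takes an absolute count of G2 and mitosis UMIs, so deeper cells can pass it with a smaller share of them. The median member held 0.388% of its UMIs in the 8 rule genes in control and 0.217% in ablated skin. How much of the mitotic difference comes from this choice of members was not tested. Mitotic genes outside the rule stood lower in ablated members, with a median log2 ratio of -0.64 over 38 genes, while replication genes stood level, with a median of 0.02 over 32. Over all 10258 genes counted the median was 0.01, 6.36% were 2-fold higher (652 genes) and 4.27% were 2-fold lower (438). Of the mitotic genes 0 were 2-fold higher and 2 were 2-fold lower, a share near that background, and 35 of 38 had negative ratios, most of them under 2-fold. Ckap2, a spindle stabiliser, stood at 129 CPM in control and 54.2 CPM in ablated members, a log2 ratio of -1.25 (95% interval -1.43 to -1.07), and Nuf2, a kinetochore protein, at 64.8 and 31.6 CPM. Anln, which builds the cleavage furrow, stood at 563 and 347 CPM, and Prc1, the midzone bundler, at 321 and 185 CPM. The kinase Plk1 went the other way, from 41.4 to 66.6 CPM, a log2 ratio of 0.69 (95% interval 0.45 to 0.92).

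Ccne1, the cyclin that starts replication, was the 1 replication gene past 2-fold, at 4.53 CPM in control and 12.9 CPM in ablated members and a log2 ratio of 1.51 (95% interval 0.84 to 2.22). Rrm2, which makes deoxynucleotides, stood at 112 and 195 CPM, and its partner Rrm1 at 201 and 203 CPM. The clamp Pcna stood at 142 and 134 CPM, and the helicase subunit Mcm6, whose promoter carries the E2F letters, at 74.1 and 105 CPM. Summed over each list, replication genes took 1723 CPM (95% Poisson interval 1687 to 1760) in control and 1931 CPM (1901 to 1961) in ablated members, and mitotic genes 6123 CPM (6055 to 6192) and 4149 CPM (4105 to 4193). Replication genes were thus 22.0% (21.6 to 22.4) of the UMIs of both lists in control and 31.8% (31.4 to 32.2) in ablated members. In non-cycling cells, which were chosen to hold no UMI of the rule genes, this share was 59.4% in control and 66.3% in ablated skin. Both sums were lower there after ablation, at 260 and 177 CPM for mitotic and 381 and 347 CPM for replication genes. The medians in these cells were nearly level, at 0.04 over 25 mitotic and -0.03 over 30 replication genes counted. Their share therefore does not show a shift of either list as a whole. Homologous recombination and Fanconi genes, which mend broken forks and include Brca1 (25.4 and 23.5 CPM) and Brca2 (29.9 and 22.3 CPM), had a median of -0.42 over 13 counted, with 0 past 2-fold either way.

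The size of the mitotic difference depended on which members were taken. With members chosen by the rule after thinning, the median of the mitotic list was -0.47, and it was -0.22 among members with 5 or more UMIs of the follicle genes Krt79 and Sox9 and -0.62 among those with fewer. One day after ablation, with another kit, the same lists had medians of 0.15 (mitotic) and -0.10 (replication) between 977 ablated and 1280 control members, and 0 genes of either list were past 2-fold, against 3.12% of 10355 genes higher and 1.8% lower (4.92% in either direction).

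**Figure D2:**
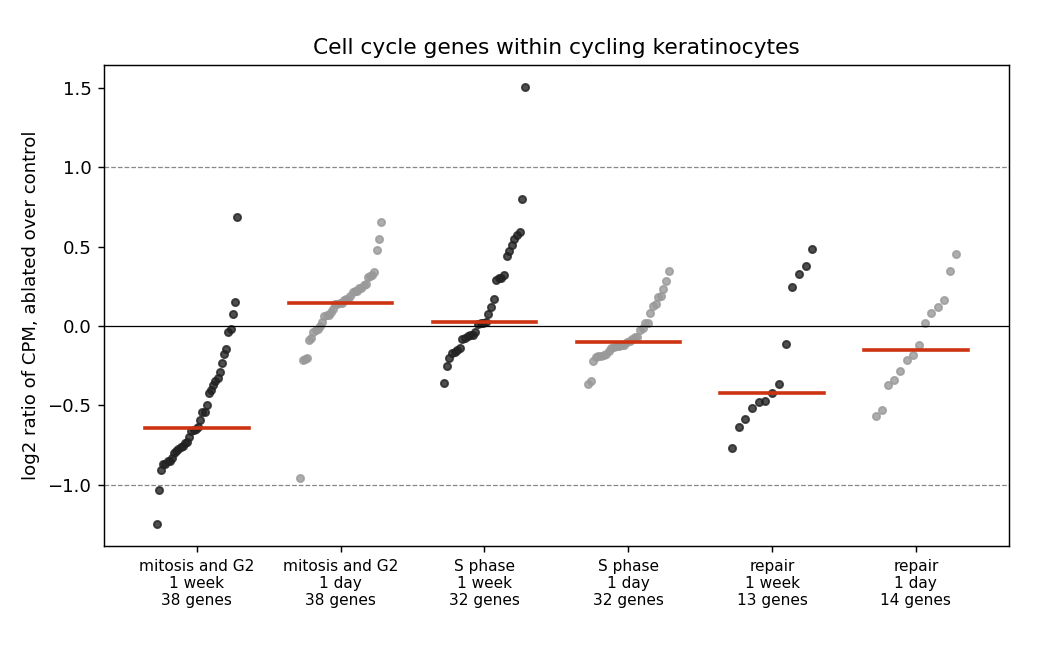
Log2 ratios of CPM, ablated over control, in 1-week (dark points) and 1-day cycling keratinocytes (grey points) for genes of mitosis, S phase (replication) and repair; each point is a gene, ordered by its ratio, the thick lines are medians and the dashed lines mark 2-fold. At 1 week replication genes lie around 0 with Ccne1 at 1.51, while 35 of 38 mitotic genes lie below 0.

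Genes that brake the cycle did not differ 2-fold in any case. Of 21 counted inhibitors and p53 targets, 0 were past 2-fold in either direction, with a median of 0.10. Cdkn1a, the p21 inhibitor that p63 and p53 act on, stood at 742 and 531 CPM, and Sfn, the epithelial checkpoint protein 14-3-3 sigma, at 6098 and 3777 CPM. Among D cyclins, their kinases and Myc genes, 1 of 10 was past 2-fold, the follicle and neural Myc family member Mycn, at 9.06 and 0.613 CPM. Cdk4 stood at 188 and 256 CPM, Ccnd1 at 85.1 and 116 CPM, and Myc at 169.6 and 152 CPM. Chromatin regulators were also level (median -0.09, 2 of 22 lower), the exceptions being the histone variant H2afv (840.1 and 398 CPM) and the genome organiser Satb1 (18.5 and 8.70 CPM).

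Trp63, the gene targeted, was lower in ablated cycling cells but not lost from them. It stood at 463 CPM in control and 146 CPM in ablated members, a log2 ratio of -1.66 (95% interval -1.77 to -1.56). In non-cycling cells the values were 514 and 157 CPM (-1.71), and immune barcodes held 207 and 74.5 CPM. Both promoter forms of the gene share 1 count here, so the DN form cannot be told apart from the form with the full activation domain, nor can transcripts that keep the floxed exons from those that lack them. Trp63 lies at chr16:25683763-25892102 on the plus strand of GRCm38 (mm10). At 3000 UMIs a Trp63 transcript was seen in 68.3% of control and 34.1% of ablated members, against 70.8% and 34% of non-cycling cells and 21.1% and 5.77% of immune barcodes. Per cell, the control members ran from 0 over a median of 395 to 1316 CPM and the ablated members from 0 over 78.1 to 1299 CPM. The 2 ranges overlapped, but the lower quartile of control members (247 CPM) was about level with the upper quartile of ablated members (248 CPM).

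Ablated cells with and without a Trp63 transcript were both found in cycle. By the thinned rule, 76 of 1111 ablated keratinocytes with a thinned Trp63 UMI were cycling (6.84%, 95% interval 5.43 to 8.49), and 117 of 2204 without one (5.31%, 4.41 to 6.33). The control values were 3.53% and 3.76%. Before thinning, 118 of 375 ablated members (31.5%) and 19 of 369 control members (5.15%) had no Trp63 UMI at all, and such an absence at this depth does not show that a cell lacked the transcript. The relatives differed less: Trp53 stood at 152 and 104 CPM, and Trp73 was near the limit of detection at 4.73 and 4.90 CPM.

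Attachment genes of the basal layer stood lower in ablated cycling cells. Of 15 basal adhesion and hemidesmosome genes 0 were 2-fold higher and 5 were 2-fold lower, with a median of -0.77 (non-cycling cells -0.93). The list summed to 4129 CPM in control and 2405 CPM in ablated members, and to 2950 and 1445 CPM in immune barcodes, where it was lower after ablation as well. The part of RNA from other barcodes was not tested. Col17a1, the hemidesmosomal collagen that anchors basal stem cells, stood at 849 CPM in control and 232 CPM in ablated members, a log2 ratio of -1.87 (95% interval -1.95 to -1.79). Dst, whose epithelial product links keratin to the hemidesmosome, stood at 778 and 243 CPM, near the immune level in each library, and Col7a1, the anchoring fibril collagen, at 41.2 and 11.6 CPM. Lamb3, a chain of laminin 332, stood at 141 and 57.0 CPM, and Fermt1, the kindlin that activates integrins, at 63.4 and 30.9 CPM. The integrins differed less, with Itga6 at 416 and 392 CPM and Itgb1 at 277 and 207 CPM. A Col17a1 transcript was seen after thinning in 87.0% of control and 44.0% of ablated members, against 28.9% and 11.5% of immune barcodes. In members with Krt79 and Sox9 of 5 or more UMIs the list's median was -0.52, and in the rest -0.53.

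Basal identity genes differed unevenly. Of 15 counted, 1 was 2-fold higher and 4 were 2-fold lower (median -0.79), and the list includes Krt5 and Krt14, which the rule used and which were not past 2-fold. Krt15, the keratin of resting basal and bulge cells, stood at 5312 CPM in control and 1142 CPM in ablated members, a log2 ratio of -2.22 (95% interval -2.25 to -2.18), whereas in non-cycling cells the ratio was -0.91. As a description of these 2 rule genes, Krt5 stood at 9613 and 5944 CPM and its partner Krt14 at 9842 and 9967 CPM. Ly6a, the surface antigen Sca-1 of the epidermis between follicles and of the upper follicle, was the member that stood higher, at 330.4 CPM in control and 942 CPM in ablated members (log2 ratio 1.51, 95% interval 1.43 to 1.59), against a ratio of 0.37 in non-cycling cells. After thinning, Krt15 was seen in 97.8% of control and 54.1% of ablated members, and Ly6a in 45.8% and 64.8%. The immune barcodes gave 28.9% and 28.8% for Krt15 and 17.1% and 19.2% for Ly6a.

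Igfbp3 (chr11:7206086-7213923 on the minus strand of GRCm38), a secreted binder of insulin-like growth factors found in basal cells, was lower by the most among abundant genes of the basal list. It stood at 420.0 CPM in control and 9.56 CPM in ablated members, a log2 ratio of -5.46 (95% interval -5.80 to -5.13), and at 1226 and 32.4 CPM in non-cycling cells. Its transcript was seen after thinning in 32.8% of control and 2.40% of ablated members, while immune barcodes gave 17.1% and 0%. As a summed level, control immune barcodes held 363 CPM, and its upper bound of 415 CPM lay within the interval of the control members, whose lower limit was 402 CPM. Without barcodes that carried markers of other lineages 4 ablated UMIs were left and the log2 ratio was -9.12 (95% interval -11.00 to -7.76). The ratio depended on follicle transcripts: it was -8.98 among members with Krt79 and Sox9 under 5 UMIs and -1.83 among those with more.

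Keratins of wounded and of simple epithelia were present in cycling cells after ablation. All 4 counted wound keratins stood 2-fold higher, with a median of 2.64 (3.27 in non-cycling cells). Krt6a stood at 149 CPM in control and 1786 CPM in ablated members, Krt16 at 299 and 972 CPM, and Krt17 at 2068 and 4826 CPM. Krt6b, their close paralogue, had 0 UMIs in control and 344 CPM in ablated members. Its ablated level was 582-fold higher (log2 ratio 9.18, lower limit of the interval 8.88) against a floor of 3 UMIs for the control sum. One cell held 35.4% of these UMIs and 10 cells 84.0%, and without the 5% of barcodes with the most UMIs the log2 ratio against that floor was 6.73 in place of 9.18. Krt6a and Krt6b are near-identical, so the authors' counting could split reads between them. Control members held 755 UMIs of Krt6a and 0 of Krt6b, and control non-cycling cells 5031 and 12. The split of reads itself was not tested. Krt6a was seen after thinning in 14.1% of control and 62.9% of ablated members, and in 11.5% of ablated immune barcodes.

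Krt8 (chr15:101996698-102004482, minus strand, GRCm38) and Krt18, the keratin pair of simple epithelia and of Merkel cells, were almost absent from control cycling cells and frequent in ablated ones. Krt8 stood at 6.50 CPM in control and 488 CPM in ablated members, a log2 ratio of 6.23 (95% interval 5.74 to 6.77), and Krt18 at 1.77 and 96.6 CPM. The 33 control UMIs of Krt8 came from 4 cells, 90.9% of them from 1 cell, and the ablated UMIs from 143. Without the 5% of barcodes with the most UMIs, 1 control UMI was left and the log2 ratio was 10.46 (95% interval 7.98 to 15.77). After thinning, Krt8 or Krt18 was seen in 3 of 369 control members (0.813%, 95% interval 0.168 to 2.36) and 111 of 375 ablated members (29.6%, 25 to 34.5). Non-cycling cells gave 0.302% and 21.5%, and immune barcodes 0 of 76, which allows up to 3.95% as 3 counts of the total, and 2 of 52 (3.85%). In the ablated library 7.59% (5.91 to 9.58) of keratinocytes with Krt8 or Krt18 were cycling by the thinned rule, against 5.21% (4.36 to 6.16) of those without, and these intervals overlap. The other Merkel cell markers were below 50 UMIs over both sums. Krt7, another simple keratin, went the other way, at 9.46 and 2.45 CPM.

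**Figure D3:**
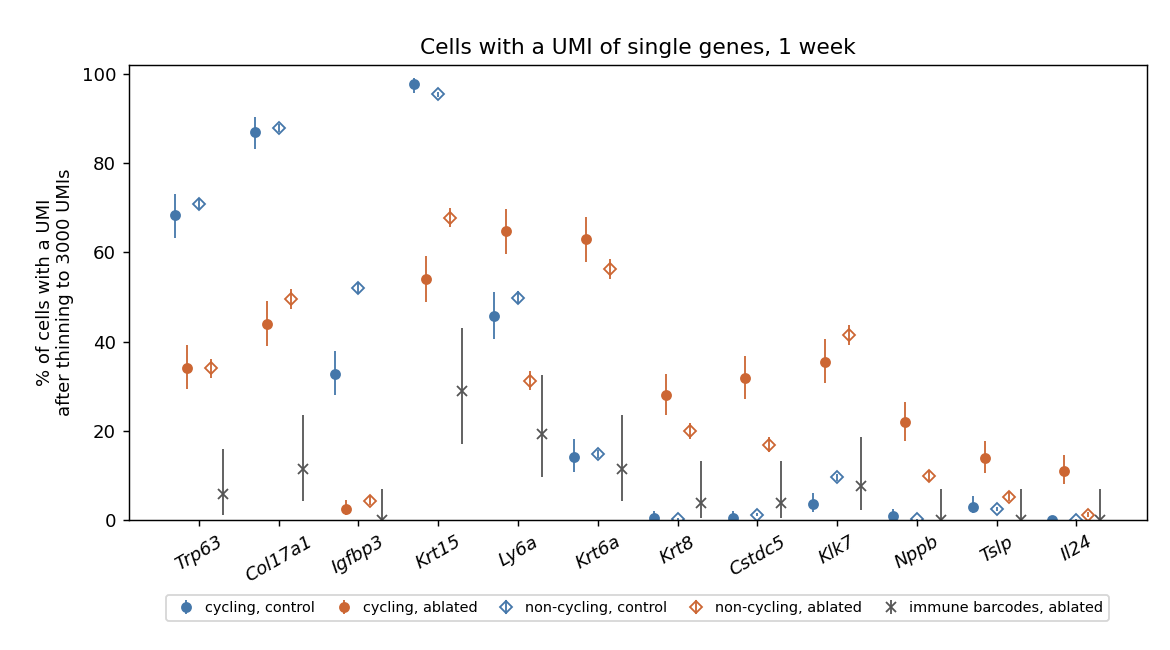
Share of cells with at least 1 UMI of a gene after thinning each cell to 3000 UMIs (percent), for cycling and non-cycling keratinocytes of both libraries and immune barcodes of the ablated library; vertical bars are exact 95% intervals for counting error. Krt8 is seen in 0.542% of control and 28.0% of ablated cycling cells, and Col17a1 in 87.0% and 44.0%.

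Within the ablated members, cells rich in Krt8 and Krt18 differed from those without on some genes, chosen after their values were seen. This is a range of 1 score and not a cell type: 103 members held 5 or more UMIs of the pair, 59 held 1 to 4, and 213 held none, and the first set was deeper (median 24094 against 17167 UMIs). Against members without the pair, those rich in it held Cldn4, a tight junction protein, at 1153 against 361 CPM, and its relative Cldn7 at 86.2 against 0.956 CPM. The epithelial factor Elf3 stood at 260.3 against 53 CPM. The natriuretic peptide gene Nppb stood at 787 against 89.8 CPM, and the alarm cytokine Tslp at 668 against 76.7 CPM. Col17a1 stood at 95.6 CPM in members rich in the pair and 333 CPM in those without, and Trp63 at 73.7 and 199 CPM. Krt5 was 3909.7 against 7589 CPM, whereas Krt14 was 10441 against 10173 CPM and Krt6b 333 against 390.2 CPM. Of the cell cycle genes, Mki67 stood at 625 and 642 CPM and Ccne1 at 18.7 and 9.08 CPM. Leaving out the Krt8-rich cells moved the Trp63 log2 ratio from -1.66 to -1.33 and left 494 genes 2-fold higher and 414 lower of 9777 counted.

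Genes of the cornified envelope, normally made by cells that have left the cycle, stood higher in ablated cycling cells. Of 24 counted, 22 were 2-fold higher and 2 were lower, with a median of 3.45 (3.95 in non-cycling cells). Sprr1a, a small proline-rich envelope protein, stood at 589.9 CPM in control and 1865 CPM in ablated members, and Klk7, a protease of the cornified layer, at 27.0 and 597 CPM. Sprr1b had 2 UMIs in control and 246 CPM in ablated members, a log2 ratio of 9.29 (95% interval 7.43 to 12.33), and Sprr2d had 1 UMI and 109 CPM, a log2 ratio of 9.11 (95% interval 6.63 to 14.41). Few cells held most of these UMIs: 10 ablated members carried 78.6% of Sprr1b (23.6% in 1 cell) and 77.4% of Sprr2d (33.8% in 1 cell). Without the 5% of barcodes with the most UMIs the log2 ratio of Sprr1b was 6.86 (95% interval 5.00 to 9.91). That of Sprr2d, with 0 control UMIs left, was 5.93 against the floor of 3 UMIs (lower 95% limit 5.62). Tgm1, which crosslinks the envelope, stood at 5.52 and 54.5 CPM, and Flg, which bundles keratin in granular cells, at 0.591 and 8.09 CPM. The 2 lower genes were the crosslinker Tgm3 (8.08 and 3.80 CPM) and the envelope scaffold Ivl (21.3 and 10.4 CPM).

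As a sum, the list was also higher in immune barcodes of the ablated library. The list summed to 880.1 CPM in control and 4689 CPM in ablated members, and to 498.4 and 2106 CPM in immune barcodes of the same libraries. For some genes a single barcode carried much of that, with 83.6% of the Klk7 UMIs, 70.0% of the Sprr1b UMIs and 41.1% of the Lor UMIs of ablated immune barcodes in 1 barcode each. Of the 22 higher genes 12 lay above the upper bound of the ablated immune barcodes, Klk7 among them (597 against 128 CPM). Asprv1 (364 against 339.8 CPM) was close to that level, and Lor (220.0 against 130.3 CPM) was higher by less than 2-fold. The part of RNA from other barcodes in these levels was not tested. Klk7 was seen after thinning in 3.52% of control and 35.5% of ablated members, and in 7.69% of ablated immune barcodes. Without barcodes that carried markers of other lineages the list's median was 2.38.

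Spinous genes did not move as a group. Of 15 counted, 3 were 2-fold higher and 3 were lower, with a median of 0.00. Krt10, the first keratin of cells that leave the basal layer, stood at 574 CPM in control and 275 CPM in ablated members, and its partner Krt1 at 186 and 256 CPM. These sums rest on few cells: 10 cells held 67.7% of the Krt10 UMIs in control and 75.6% in ablated members, and 69.3% and 90.4% of the Krt1 UMIs. After thinning Krt10 was seen in 20.6% and 18.4% of members. Mt4, an epidermal metallothionein, stood at 15.4 and 4.54 CPM, and the desmosomal cadherin Dsg1a at 120.4 and 59.1 CPM. On the other side were Dsc1, another desmosomal cadherin (19.9 and 75 CPM), the barrier factor Grhl3 (11.4 and 35.7 CPM) and the receptor Notch3 (10.8 and 24.0 CPM). With members chosen after thinning the median of the list was 1.09.

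**Figure D4:**
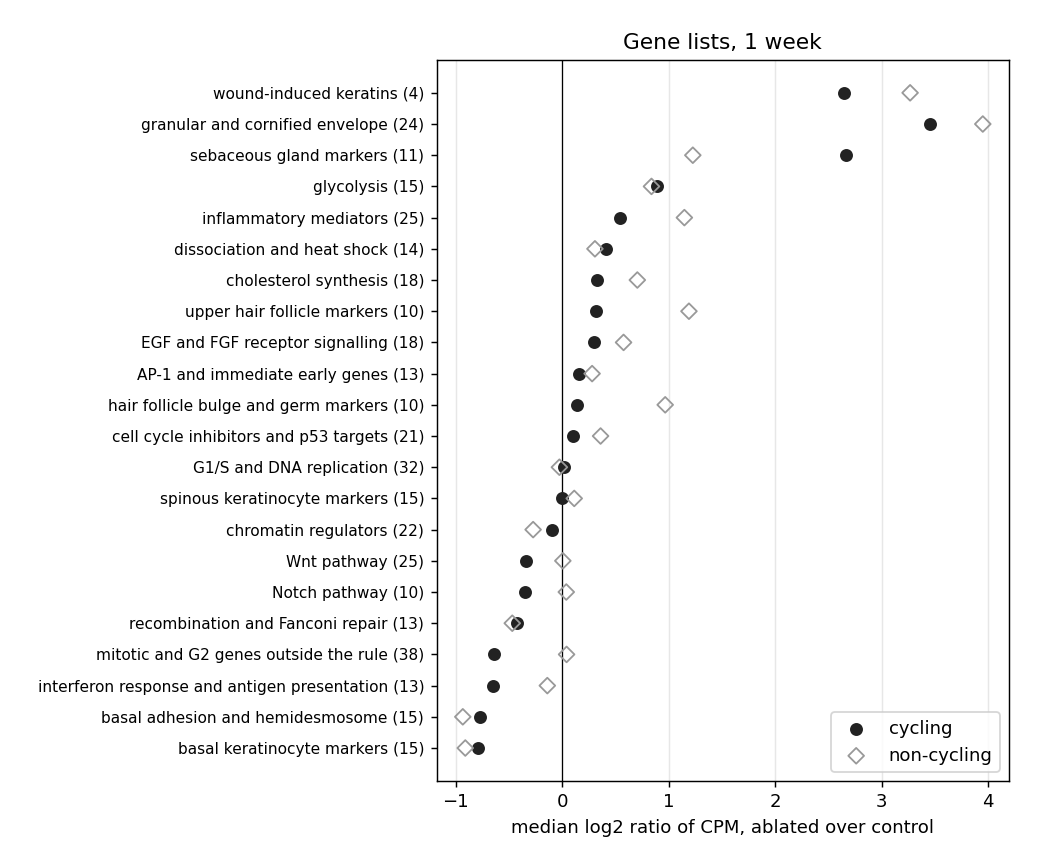
Median log2 ratio of CPM, ablated over control, for the gene lists named on the vertical axis in cycling (filled points) and non-cycling keratinocytes (open diamonds) at 1 week, with the number of genes counted in brackets; the value for all genes counted is 0.01 in cycling cells. The cornified envelope list lies highest among the larger lists at 3.45 in cycling cells, and the basal adhesion list at -0.77.

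Cytokine and alarm genes stood higher in part. Of 25 counted inflammatory mediators 8 were 2-fold higher and 2 lower, with a median of 0.55 (1.15 in non-cycling cells). Of the 8 higher genes 6 lay above the upper bound of the ablated immune barcodes. Tslp, the epithelial cytokine that acts on dendritic and lymphoid cells, stood at 6.70 CPM in control and 289.6 CPM in ablated members, a log2 ratio of 5.43 (95% interval 4.95 to 5.97). S100a9, a calcium-binding alarm protein that is also on the immune marker list, had the highest ratio of the 25, at 0.788 (4 UMIs) and 46.7 CPM. Outside the list, Il24, a cytokine of the interleukin 10 family, stood at 1.38 and 111 CPM in cycling cells and at 0.446 and 8.92 CPM in non-cycling cells. Lcn2, an iron-sequestering defence protein, stood at 7.88 and 152 CPM, and Il1f9, the skin cytokine interleukin 36 gamma, at 1.58 and 23.9 CPM. After thinning, Tslp was seen in 2.98% of control and 13.9% of ablated members against 2.53% and 5.25% of non-cycling cells, and Il24 in 10.9% of ablated members against 1.13% of ablated non-cycling cells. Neither was seen in the 52 ablated immune barcodes, which allows a share of up to 5.77% as 3 counts of the total. In ablated members 10 cells held 69.1% of the Tslp UMIs and 55.9% of the Il24 UMIs. The 2 lower genes were the nuclear alarmin Il33 (54.8 and 17.5 CPM) and the skin chemokine Ccl27a (542 and 239 CPM). The list's median was 1.39 among members with few follicle transcripts and -0.19 among those with Krt79 and Sox9 of 5 or more UMIs.

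Ligands of the EGF receptor accompanied them. Of 18 counted genes of EGF and FGF receptor signalling 5 were 2-fold higher and 0 lower, with a median of 0.30. Ereg stood at 3.15 CPM in control and 39.8 CPM in ablated members, Areg at 53.8 and 173 CPM, Hbegf at 113 and 288 CPM, and Tgfa at 21.5 and 48.0 CPM, all ligands of that receptor. Etv4, a transcription factor downstream of FGF receptors, stood at 7.09 and 29.4 CPM. The receptors themselves differed less, with Egfr at 189 and 127 CPM and Fgfr2 at 156 and 79.9 CPM. Of 25 Wnt pathway genes 1 was past 2-fold, the receptor Lrp4 (19.1 and 8.46 CPM). Of 10 Notch pathway genes Notch3 was higher and the ligand Dll1 lower (50.8 and 23.3 CPM). Of 13 early response genes 1 was past 2-fold, the AP-1 subunit Fosl1, at 668 and 258 CPM, while Fos stood at 1059 and 1802 CPM.

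Interferon and antigen presentation genes had a median of -0.65 over 13 counted, with 1 past 2-fold in each direction. H2-K1, a class I molecule, stood at 2626 and 1439 CPM, and B2m, its light chain, at 2459 and 1419 CPM. Nlrc5, the factor that switches on class I genes, stood at 40.0 and 19.2 CPM, and Isg15, an interferon-induced modifier, at 12.4 and 27.8 CPM. Isg15, the higher gene, did not lie above the upper bound of the ablated immune barcodes. The list summed to 8545 CPM in control and 6006 CPM in ablated members, and to 5609 and 6132 CPM in immune barcodes.

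Glycolytic genes stood higher together. Of 15 counted 6 were 2-fold higher and 0 lower, with a median of 0.89 (0.84 in non-cycling cells). Pkm, the pyruvate kinase, stood at 448 CPM in control and 1329 CPM in ablated members, a log2 ratio of 1.57 (95% interval 1.5 to 1.63). Ldha, which makes lactate, stood at 549 and 1254 CPM, Gapdh at 986 and 2188 CPM, and Eno1 at 336 and 832 CPM. The hexokinase Hk2 stood at 20.5 and 43.9 CPM. The list summed to 4286 and 9301 CPM in members and to 3567 and 7259 CPM in immune barcodes, so the level was higher in ablated barcodes that are not keratinocytes as well, and the part of RNA from other barcodes was not tested. Dissociation and heat shock genes, which can respond to handling, had a median of 0.41 over 14, with Hspd1 (219 and 499 CPM) and Hsph1 (38.8 and 89.5 CPM) past 2-fold. Only 1 of these 2 genes lay above the upper bound of the ablated immune barcodes. In non-cycling cells the median was 0.31 with 0 of 14 past 2-fold. The part of handling in these levels was not tested.

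Hair follicle and sebaceous transcripts were unevenly spread over the members. Krt79, a keratin of the upper follicle and sebaceous duct, stood at 298 CPM in control and 729.8 CPM in ablated members (log2 ratio 1.29, 95% interval 1.21 to 1.37). Of 10 upper follicle genes 4 were 2-fold higher and 0 lower (median 0.32). Members with 5 or more UMIs of Krt79 and Sox9, the follicle stem cell factor, were 127 of 369 (34.4%) in control and 241 of 375 (64.3%) in ablated skin, a score that also grows with depth. Of 10 bulge and germ genes 2 were higher and 2 lower (median 0.14): Cd34, a bulge surface protein, stood at 11.4 and 45.0 CPM and Postn, a matrix protein, at 167 and 349 CPM, whereas Lgr5, the receptor that marks follicle stem cells, stood at 31.3 and 7.35 CPM and the factor Lhx2 at 52.6 and 25.9 CPM.

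Of 11 counted sebaceous genes 9 were 2-fold higher and 0 lower, with a median of 2.67 (1.23 in non-cycling cells). The list summed to 433 CPM in control and 2152 CPM in ablated members, and to 247 and 815 CPM in immune barcodes, and 6 of the 9 higher genes lay above the upper bound of the ablated immune barcodes. The part of RNA from other barcodes was not tested. Fabp5, a fatty acid binder also made by other keratinocytes, stood at 139.7 CPM in control and 942 CPM in ablated members, Scd1, a desaturase, at 62.8 and 240.5 CPM, and Mgst1 at 76.6 and 416 CPM. Elovl3, which lengthens sebum fatty acids, had 0 UMIs in control and 54.4 CPM in ablated members, but these came from 15 cells, of which 10 held 98.9%. Outside the list, Fa2h, a fatty acid hydroxylase, stood at 0.394 and 74.8 CPM with 97.5% of the ablated UMIs in 10 cells. Cells with 3 or more UMIs of Elovl3, Awat1, Awat2 and Cidea were 1 of 369 control and 11 of 375 ablated members, and 7 of the 11 were also rich in Krt8 and Krt18. The list's median was 1.00 with members chosen after thinning and 0.30 among members with Krt79 and Sox9 under 5 UMIs. Among cholesterol synthesis genes 3 of 18 were 2-fold higher and 0 lower (median 0.33), among them the late enzymes Dhcr7 (11.6 and 24.9 CPM) and Ebp (76.2 and 159 CPM). That median was -0.36 among the members with few follicle transcripts.

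The 12 genes furthest above control by the nearer bound of their interval were Krt6b, Sprr1b, Prl2c3, Sprr2d, Elovl3, Bex1, Cstdc5, Krt8, Fa2h, Il24, Slurp1 and Hdc. All lay above the immune barcodes of the ablated library. In non-cycling cells at 1 week 11 of the 12 were counted and 2-fold higher (9.14% of 12355 genes there), and Hdc had too few UMIs to be counted. In cycling cells at 1 day 8 of the 12 were counted and 2-fold higher (3.12% of genes there), and Hdc and Prl2c3 were not counted. Without the 5% of barcodes with the most UMIs the log2 ratios of the 12, with a control sum of 0 set to 3 UMIs, ran from 4.35 (Hdc) to 10.46 (Krt8), and without barcodes that carried markers of other lineages from 4.45 (Slurp1) to 10.28 (Krt8). In the latter setting Sprr2d stood at 5.83 with 1 control UMI and Prl2c3 at 4.76 (lower 95% limit 4.43) with 0 set to 3 UMIs. Cstdc5, a stefin-type protease inhibitor, stood at 6.30 CPM in control and 495 CPM in ablated members (log2 ratio 6.30, 95% interval 5.80 to 6.84) and was seen after thinning in 0.542% and 31.7% of members. One cell held 87.5% of its control UMIs, and its ratio without the 5% of barcodes with the most UMIs, with 3 control UMIs left, was 8.30 (95% interval 6.75 to 10.58). Bex1 had 0 UMIs in control and 51.4 CPM in 53 ablated members. Prl2c3, a prolactin family gene with close paralogues, also had 0 UMIs in control and 125 CPM in ablated members, 99.1% of it in 10 cells. Against the floor its log2 ratio was 2.12 among members with Krt79 and Sox9 of 5 or more UMIs and 8.36 among the rest. Slurp1, a secreted epidermal peptide, stood at 0.394 (2 UMIs) and 51.4 CPM, and Hdc, which makes histamine, had 0 UMIs in control and 25.7 CPM.

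The 11 genes reported as furthest below control were Igfbp3, Mfap2, Gdf15, Nrcam, Ch25h, Slc7a2, Slc4a8, Sema3d, Crispld1, Mycn and Sox6. Of these Mfap2, Nrcam, Ch25h, Slc7a2 and Crispld1, 5 in all, lay above the immune barcodes of the control library. In turn 5 were 2-fold lower in non-cycling cells at 1 week (4.52% of genes there), and 3 were 2-fold lower in cycling cells at 1 day (1.8% of genes there), where 6 of the 11 were not counted. Ch25h, which makes 25-hydroxycholesterol, stood at 50.2 CPM in control and 4.41 CPM in ablated members (log2 ratio -3.51, 95% interval -4.06 to -3.00), the guidance ligand Sema3d at 68.6 and 7.97 CPM, and the factor Sox6 at 45.7 and 5.76 CPM. The bicarbonate transporter Slc4a8 stood at 23.1 and 2.08 CPM. Among members with Krt79 and Sox9 of 5 or more UMIs the log2 ratio was -1.76 for Ch25h, -1.68 for Sema3d and -1.42 for Slc4a8. Among the rest it was -4.75, -3.01 and -3.59 in the same order. Sox6 went the other way, at -3.15 and -2.34. Control immune barcodes held Sema3d at 53.3 CPM, Sox6 at 36.7 CPM and Slc4a8 at 13.3 CPM, and for these 3 genes the control members were not above the immune upper bound. Gdf15, a stress-induced ligand, stood at 28.6 and 0.981 CPM, but 99.3% of its 145 control UMIs came from 1 cell. After thinning it was seen in 0.271% of control and 1.07% of ablated members, and its ratio turned positive under 4 alternatives.

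**Figure D5:**
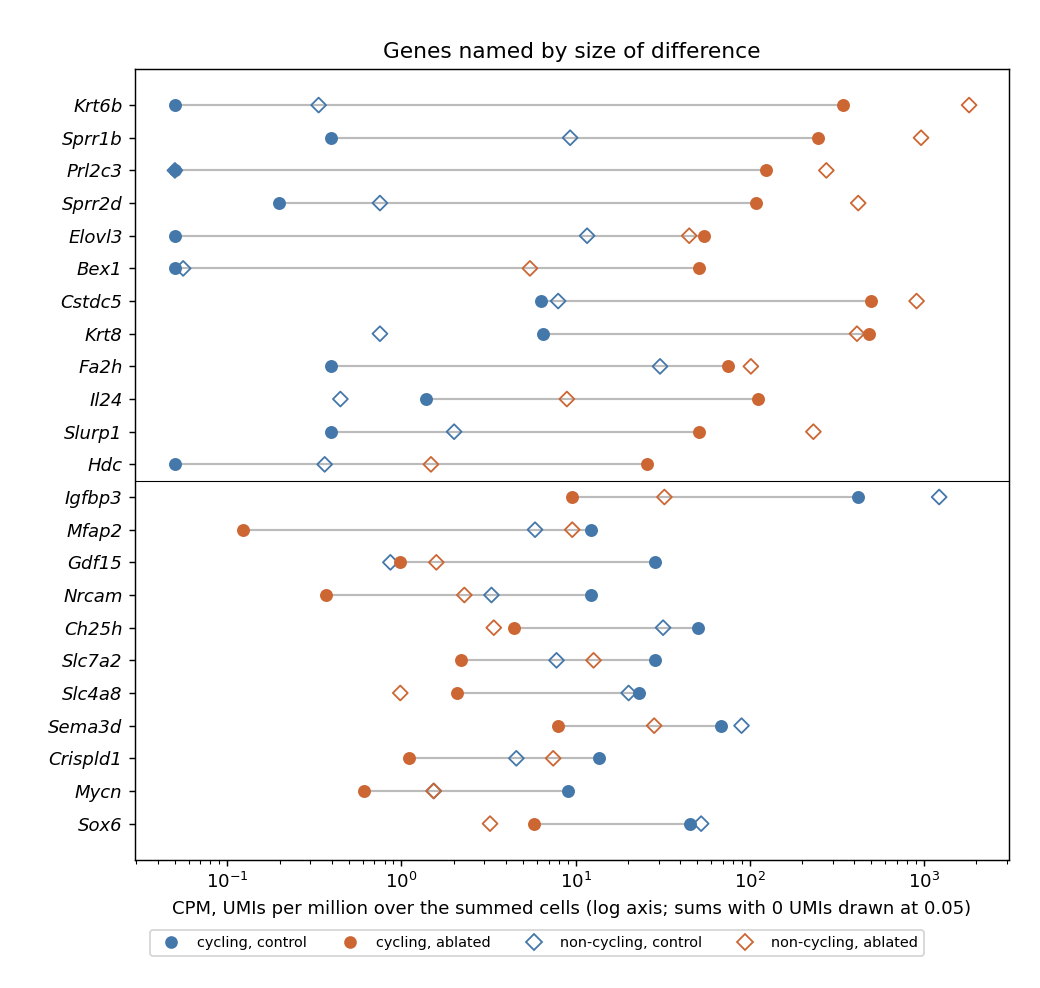
Level in CPM of the summed cells (log axis) for the 12 genes furthest above control (above the dividing line) and the 11 reported as furthest below; filled points are cycling and open diamonds non-cycling keratinocytes of the 1-week control and ablated libraries, grey lines join the cycling pair, and sums of 0 UMIs are drawn at the left. Igfbp3 is lower in both classes after ablation, while Mfap2, Slc7a2 and Crispld1 are lower in cycling cells and slightly higher in non-cycling cells.

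Several of the lower genes came from the same few control cells. The genes Mfap2, Nrcam, Slc7a2, Crispld1 and Mycn were grouped after their values were seen, so what follows is a description. At least 3 of these 5 genes were detected in 20 of 369 control members (5.42%, 95% interval 3.34 to 8.25), which held 86.8% of the 385 control UMIs of the 5, and in 0 of 375 ablated members, which allows a share of up to 0.800% as 3 counts of the total. Without barcodes that carried markers of other lineages too few UMIs were left to give a level: 7 in control and 0 in ablated members for Mfap2, 8 and 0 for Nrcam, 16 and 7 for Slc7a2, 5 and 2 for Mycn, and 2 and 2 for Crispld1. As 211 of the 369 control members remained in that setting, most control UMIs of the 5 genes came from barcodes with such markers. Whether these barcodes held more than 1 cell was not tested. Among non-cycling cells at least 3 of the 5 genes were detected in 0.563% (28 cells) in control and 0.721% (14 cells) in ablated skin. The 20 cells held Lgr5 at 328 CPM, Ptch1, the Hedgehog receptor, at 361 CPM, Lhx2 at 466 CPM and Hoxc13, a hair factor, at 91.0 CPM, with Krt15 at 2506 CPM and Trp63 at 628 CPM. Lgr5, Ptch1, Lhx2 and Hoxc13 are genes of growing or regenerating follicles. Over all control members Krt15 stood higher, at 5312 CPM, and Trp63 lower, at 463 CPM. Over all members, Nrcam, a cell adhesion molecule, stood at 12.2 CPM in control and 0.368 CPM in ablated skin. Of 4 hair matrix and inner root sheath genes counted over all members, Hoxc13 was 2-fold lower and 1 was 2-fold higher (median -0.37). The higher gene was Tchh, with 28 UMIs in control and 1359 in ablated members. After thinning it was seen in 1.36% of control and 18.7% of ablated members.

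Set against non-cycling cells of their own library, cycling cells differed by the cell cycle in both genotypes, as the rule requires. All 38 mitotic and all 32 replication genes stood 2-fold or more above non-cycling cells in each library, with medians of 6.35 (control) and 5.77 (ablated) for the mitotic list and 2.64 and 2.72 for replication, against 8.26% of 11885 genes higher and 6.16% lower in control and 7.95% of 11486 higher and 9.03% lower in ablated skin. Outside the cycle, cornified envelope genes stood lower in cycling than in non-cycling cells. This was so 2-fold or more for 14 of 19 counted in control (median -1.67) and 23 of 24 in ablated skin (median -2.21), so the ablated members, although far above control members, lay below their own non-cycling neighbours. Krt6b was 344 CPM in ablated members and 1822 CPM in ablated non-cycling cells, and Sprr1b 246 and 965 CPM. Spinous genes were 2-fold lower in 11 of 15 and 10 of 15. Some of the genes described above, among them Hdc, Bex1, Ly6a, Nppb, Tslp and Il24, were higher in cycling than in non-cycling cells of ablated skin. Hdc stood at 25.7 CPM in cycling and 1.48 CPM in non-cycling cells, and Bex1 at 51.4 and 5.47 CPM. Ly6a stood at 942 CPM in cycling and 517 CPM in non-cycling cells, Nppb at 339 and 170.2 CPM, Tslp at 289.6 and 136 CPM, and Il24 at 111 and 8.92 CPM. In control cells, in the same order, Ly6a stood at 330.4 and 399 CPM and Tslp at 6.70 and 10.8 CPM. Nppb, at 9.46 and 1.87 CPM, and Il24, at 1.38 and 0.446 CPM, were higher in cycling cells of control skin too, though 1 cell held 85.7% of the 7 control Il24 UMIs.

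At 1 day the same rule found 1280 control and 977 ablated cells, and their values are set beside these without a comparison because the kits read opposite transcript ends. Trp63 stood at 399 and 129 CPM (-1.63). Krt8 stood at 1.34 and 782 CPM, Krt6a at 384 and 748 CPM, and Cstdc5 at 65.8 and 180.2 CPM. Of the cornified envelope genes 20 of 23 counted were 2-fold higher (median 1.64), of the adhesion genes 3 of 15 were 2-fold lower (median -0.39), and of the sebaceous genes 0 of 9 were higher and 2 lower (median -0.38). Krt15 stood at 2979 and 998 CPM, Col17a1 at 884 and 287 CPM and Igfbp3 at 451 and 96.0 CPM. Glycolytic genes were level at that time (median 0.21, 0 of 15 past 2-fold).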

How the data were processed

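Single-cell RNA of mouse back skin epidermal cells was measured in 4 libraries, 1 per group. The deposited matrices hold UMI counts per gene and barcode for 32285 genes, made by the authors with Cell Ranger 5.0.1 per the file headers, with mm10 and Seurat named in the submitters' processing notes. Filters the authors applied to barcodes before deposit, and any removal of doublets, are not given in the sources used here, and no doublet caller was run. The lowest UMI count of a barcode was 500 in the 1-week control and 1059 in the 1-week ablated list, and the median was 1298 and 1617.

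Members, non-cycling cells and immune barcodes (2 or more Ptprc UMIs, 5 or more of 17 other immune markers, and 2% or more of UMIs in those markers) were selected from the deposited counts. The members and gene lists were chosen with earlier results of these data known. Counts were summed per class, scaled to CPM, and compared without a test, since each group was 1 library. Intervals were exact Poisson for CPM, exact conditional binomial for ratios and exact Clopper-Pearson for shares, at 95%, covering counting error only. A sum of 0 was set to a floor of 3 counts for a fold. Cells were thinned to 3000 UMIs with seed 7. The genes named were the 12 highest and 12 lowest by the interval bound nearest 0 among genes with 50 or more UMIs, leaving out rule, sex-linked, mitochondrial, ribosomal protein, Gm- and Rik-named genes, and within lists up to 6 members with the most UMIs and those past 2-fold; a few genes that these rules select are not reported here. Members of a range of Krt8 or follicle UMIs and the genes quoted in it were chosen after their values were seen. Alternatives covered scaling (TMM and RLE factors from edgeR 4.0.16 in R 4.3.3, used only for these factors), the low-count filter, membership, markers of other lineages and thinning. The arithmetic was checked on simulated data: of 200 genes set 4-fold apart among 10222, 100% were recovered, 0.0698% of the others were called, and 95.4% of intervals covered the true ratio. The simulated sums were Poisson draws with no spread between cells. These rates therefore cover counting error only and do not apply to genes whose UMIs sat in few cells. Software was Python 3.11.15, numpy 2.4.6, scipy 1.17.1, pandas 2.3.3 and matplotlib 3.10.9. Promoters came from RefSeq (GRCm38.p6).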

Additional observations from a re-analysis of the deposited data

Results flagged for a closer look

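Some genes had opposite signs of at least 2-fold in a pair of contrasts, and they are given here. None of these differences was tested, since each group was 1 library.

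Hoxc13 had a log2 ratio of -2.06 in cycling cells (10.2 and 2.45 CPM) and 1.11 in non-cycling cells (8.22 and 17.7 CPM) at 1 week. Lgr5 likewise stood at -2.09 in cycling cells (31.3 and 7.35 CPM) and at 1.01 in non-cycling cells (42.7 and 85.8 CPM). In control, 10 cycling cells held 67.3% of the Hoxc13 UMIs and 70.4% of the Lgr5 UMIs.

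Cidea and Elovl3, which are on the sebaceous list, and Fa2h, which is not, differed in sign between times in cycling cells, which were also read with different kits. Cidea stood at 4.47 at 1 week and -2.10 at 1 day. Elovl3 stood at 6.52 at 1 week against the floor for a control sum of 0, and at -3.30 at 1 day with 3 ablated UMIs. Fa2h stood at 7.57 at 1 week with 2 control UMIs, and at -1.65 at 1 day.

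Taken as cycling over non-cycling cells of the same library, Crispld1 had a log2 ratio of 1.57 in control and -2.75 in ablated skin, and Slc7a2 1.89 and -2.52. Mfap2 had 1.06 in control and -6.29 in ablated skin, where it held 1 UMI in cycling cells. Slpi, a secreted protease inhibitor, had 6.68 in control and -2.25 in ablated skin, but 98.2% of its 217 control UMIs came from 1 cell.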

How the results depend on the processing

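No paired analysis was possible because each group was 1 library, and for the same reason no library could be left out. The difference in the share of cycling cells stayed positive under all 7 alternatives; it was 8.39 points at 5000 or more UMIs, 4.48 without barcodes holding markers of other lineages and 2.22 with the rule applied after thinning. The Trp63 log2 ratio stayed negative under all 16 alternatives. It was -2.02 without barcodes holding other lineage markers, -1.33 without Krt8-rich cells, -1.44 as the mean over cells, -1.38 without the 5% of barcodes with the most UMIs, -0.99 on thinned counts of members chosen after thinning, and -1.88 among members with Krt79 and Sox9 under 5 UMIs. Both splits by Krt79 and Sox9, and the thinned counts, were chosen after seeing the data. Against 652 genes 2-fold higher and 438 lower of 10258 counted, there were 1247 and 1176 of 14505 with no filter beyond 1 UMI in each library. On thinned counts there were 184 and 164 of 4225. Without ablated cells that held Trp63 UMIs 571 were higher and 694 lower of 9020 (45.1% of calls higher, against 59.8%). Among members with Krt79 and Sox9 of 5 or more UMIs there were 493 and 227 of 9226, and among the rest 596 and 605 of 8374 (49.6% higher). TMM and RLE scaling gave 645 and 639 higher and 448 and 455 lower. Of 386 values of the 23 named genes under alternatives, 378 kept their direction past 2-fold and 4 reversed, all of Gdf15: 1.11 on thinned counts, 0.17 among members with Krt79 and Sox9 of 5 or more UMIs, 0.81 with the rule after thinning and 0.23 without the deepest 5%. The other values under 2-fold were Crispld1 and Mfap2 at -0.85 and Nrcam at -0.04 on thinned counts, and Elovl3 at 0.81 with the rule after thinning. Elovl3 had 0 control UMIs, so its value is against the floor of 3 UMIs. Mfap2 held 1 ablated UMI and Nrcam 3 before thinning, so their thinned values are limited by that floor or by few UMIs. Over 17 alternatives the median of the mitotic list ran from -0.75 to -0.22, that of replication from -0.12 to 0.22, cornified envelope from 2.38 to 3.81, basal adhesion from -1.09 to -0.52 and glycolysis from 0.68 to 1.21. Depth limits what absence can show: genes with few UMIs per cell are missed at 3000 UMIs, and animals cannot be told apart from genotype with 1 library each. The 5 sex-linked genes summed to 418 CPM in control and 238 CPM in ablated members, with 0 past 2-fold. In non-cycling cells they summed to 411 and 249 CPM, also with 0 past 2-fold. Whether the libraries differed in sex make-up was not tested.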

Other observations

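Values that belong to no comparison above concern the barcodes between the 2 classes, which held 1 or more rule UMIs but did not meet the rule. There were 1605 in control and 998 in ablated skin, with medians of 5773 and 6823 UMIs. After thinning, Krt8 or Krt18 was seen in 0.312% of the control and 32.9% of the ablated barcodes of this class, and Trp63 in 68.6% and 32.4%. The ablated members rich in Krt8 and Krt18 and those with 5 or more UMIs of Krt79 and Sox9 overlapped in 37 cells.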
